A study of Mus musculus with 12 samples.

Results

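The 48 genes described here are interferon-stimulated genes, a set listed by gene symbol and chosen with earlier results of these data known. All 48 were found among the 53801 genes of the deposited tables. They were followed in hearts of adult male C57BL/6N mice after a sham operation (n = 4), and 1 day (n = 4) and 7 days (n = 4) after permanent ligation of the left anterior descending artery (LAD), which causes acute myocardial infarction (AMI). RNA came from the whole heart, so that infarct, border and remote muscle are pooled in each library, the labels name no genetic change and no treatment beside surgery in any group, and the sham group carries no day of its own. Each of the 12 libraries held 23204551 to 32166517 gene counts, and a gene with 3 counts or fewer lies at or under 0.0895 to 0.156 CPM (counts scaled to a common library size), depending on the library. All 48 genes were among the 15306 that passed the filter on low counts, and the lowest single value was 2 counts of *Oas3* in sham heart 3.

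Interferons are secreted alarm proteins. Type I interferons (IFN-α and IFN-β) bind the receptor IFNAR on almost every cell, and the kinases JAK1 and TYK2 then start a signal that ends with a protein complex holding IRF9, which binds the interferon-stimulated response element (ISRE) in the promoters of antiviral genes. Type II interferon (IFN-γ, made by T and NK cells) acts through the gamma-activated sequence (GAS), and drives above all the guanylate-binding proteins (GBPs) and the immunity-related GTPases (IRGs). In infarcted myocardium, DNA of dying cells taken up by macrophages is known to engage the cGAS-STING pathway and so to induce type I interferon.

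Many of these genes hold the motifs of interferon signalling in their promoters. Of the 48 genes, 34 had a RefSeq promoter window (GRCm38.p6, 250 bases before to 50 after the transcript start, 37 windows). The ISRE core, searched as GAAANNGAAA on both strands, was found in 22 of the 34 (64.7%), against 3.99% of all 27025 genes with a window. The GAS motif, searched as TTCNNNGAA, whose reverse complement has the same letters, was in 11 of 34 (32.4%) against 9.55%, and both stood in 1 window in 9 genes (26.5%) against 0.540%. The ISRE core was found in 4 of 4 GBP genes, 4 of 5 IRG genes, 3 of 4 IFIT genes and 0 of 4 among *Ifi35*, *Ifi44*, *Samd9l* and *Xaf1*. The GAS motif was found in 2 of 4 GBP genes, 3 of 5 IRG genes, 2 of 5 of the OAS group, 2 of 6 of the Mx and membrane group and 1 of 4 IFIT genes. A match is a description of letters and not a measured binding site.

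Stretches of 7 of these promoters are printed after their gene names from 130 to 21 bases before the RefSeq transcript start, 5′ to 3′ on the strand of the gene, with the bases matched by either motif in capitals. They were chosen by their motifs, the first 3 as antiviral genes that hold only the ISRE core and the last 4 as GTPase genes that hold both motifs, and they do not stand for their families. *Bst2*, *Ifitm3*, *Oas1a*, *Eif2ak2* and *Gbp5* also held both motifs, *Gbp2*, *Gbp3* and *Irgm1* held the ISRE core without GAS, and *Ifi47* held neither.
Isg15: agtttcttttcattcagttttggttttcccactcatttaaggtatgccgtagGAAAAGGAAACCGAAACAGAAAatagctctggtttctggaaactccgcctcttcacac
Ifit1: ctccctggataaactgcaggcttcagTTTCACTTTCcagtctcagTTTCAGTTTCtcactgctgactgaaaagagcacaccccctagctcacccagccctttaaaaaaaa
Rsad2: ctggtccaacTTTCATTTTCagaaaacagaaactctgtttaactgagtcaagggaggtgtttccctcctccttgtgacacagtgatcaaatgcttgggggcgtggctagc
Gbp7: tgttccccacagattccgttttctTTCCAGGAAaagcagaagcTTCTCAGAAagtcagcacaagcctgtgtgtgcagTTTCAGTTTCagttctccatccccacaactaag
Igtp: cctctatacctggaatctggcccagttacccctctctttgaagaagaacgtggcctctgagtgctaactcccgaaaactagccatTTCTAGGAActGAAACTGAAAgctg
Irgm2: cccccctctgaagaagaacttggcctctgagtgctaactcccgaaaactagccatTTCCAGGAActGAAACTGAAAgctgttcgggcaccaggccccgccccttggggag
Tgtp1: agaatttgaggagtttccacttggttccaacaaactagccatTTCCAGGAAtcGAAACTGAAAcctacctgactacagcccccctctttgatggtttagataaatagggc

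These stretches lie in GRCm38.p6 at chr4:156200839-156200948, minus strand (*Isg15*), chr19:34640759-34640868, plus strand (*Ifit1*), chr12:26456473-26456582, minus strand (*Rsad2*), chr3:142530206-142530315, plus strand (*Gbp7*), chr11:58199426-58199535, plus strand (*Igtp*), chr11:58214847-58214956, plus strand (*Irgm2*) and chr11:48992267-48992376, minus strand (*Tgtp1*), and 0 of their bases fall in an exon of GENCODE M21. *Isg15* held 3 ISRE cores that overlap one another, beginning 78, 72 and 66 bases before the start, where *Rsad2* held 1, at 120 bases. In *Igtp*, *Irgm2* and *Tgtp1* the GAS motif ended 2 bases before the ISRE core began, at 34, 64 and 77 bases before the start, so that the motifs sat side by side in the same order in all 3. The letters just before the GAS motif were also the same in all 3, and *Igtp* and *Irgm2* matched over a longer run. These 3 arrangements therefore need not be separate occurrences. In *Gbp7* the order was the same but the motifs stood apart, with GAS matches at 106 and 87 bases and the ISRE core at 53.

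Single hearts stood apart within each group, and they are named here because results below rest on them. CPM values are scaled by the trimmed mean of M values (TMM), and values of a group follow in the order of heart 1 to heart 4. Day 7 heart 4 had the highest value of its group for 40 of the 48 genes (83.3%, against 19.9% of all genes tested), and was at least 2-fold above the next heart for 10 (20.8% against 0.614%). Sham heart 2 was the highest sham heart for 30 of the 48 (62.5% against 27.9%) and sham heart 3 the lowest for 27 (56.2% against 20.7%). Day 1 heart 2 was the highest of its group for 34 (70.8% against 31.1%), and day 7 heart 3 the lowest of its group for 32 (66.7% against 26.1%). The standard deviation (SD) of log2 CPM within a group had a median over the 48 genes of 0.33 in sham, 0.22 on day 1 and 0.30 on day 7, where all genes tested had medians of 0.20, 0.17 and 0.17.

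**Figure D1:**
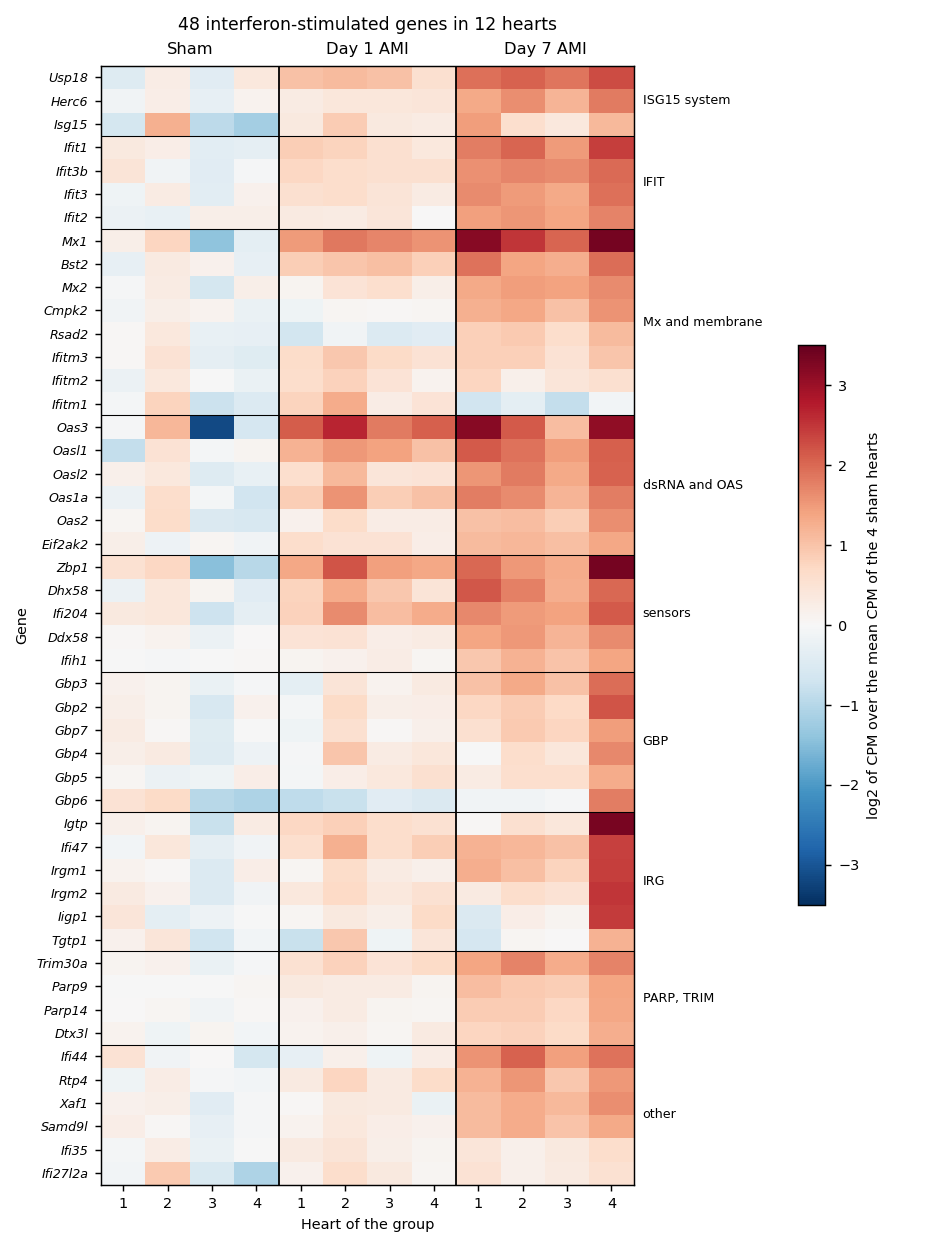
Heat map of the 48 genes (vertical axis, grouped by role) in the 12 hearts (horizontal axis, by group), with color giving the log2 of CPM over the mean CPM of the sham hearts. The day 7 columns were the warmest for most genes, and day 7 heart 4 stood above the other day 7 hearts in the GBP and IRG blocks.

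The rise was small on day 1 and broad on day 7. A gene was called a DEG where its fold change (FC) was at least 2 and its false discovery rate (FDR) was under 0.05 in edgeR's quasi-likelihood test over all 15306 genes, and the error after ± beside a log2 FC is its standard error (SE). On day 1 after AMI, 6 of the 48 genes rose against sham (12.5%, where 7.79% of all genes tested were called higher) and 0 were called lower (2.98% of all genes). On day 7, 33 of 48 rose against sham (68.8%, background 15.3%) and 0 were called lower (5.88%). Day 7 set directly against day 1 gave 18 higher (37.5%, background 8.55%) and 1 lower (background 2.69%), *Ifitm1*.

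Fitted FCs leaned the same way beyond the called genes. The median log2 FC of the 48 genes was 0.42 on day 1 against sham, 1.32 on day 7 against sham and 0.83 on day 7 against day 1, where the medians of all genes tested were -0.01, 0.03 and 0.02. Log2 FCs lay above 0 for 46, 47 and 46 of the 48, against 48.8%, 51.6% and 51.7% of all genes. At an FDR below 0.05 with no FC minimum, 20 genes were higher and 1 lower on day 1 against sham (background 22.0% and 19.9%), 42 and 0 on day 7 (30.9% and 28.4%), and 32 and 1 on day 7 against day 1 (24.2% and 22.8%). The 4 hearts of one group lay wholly above the 4 of the other for 24 genes on day 1 against sham (background 19.6%), 36 on day 7 against sham (28.3%) and 29 on day 7 against day 1 (23.5%). An exact two-sided permutation test of 4 hearts against 4 cannot give a p below 0.0286, which is its value for each of these genes.

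The 6 genes called on both days were *Mx1*, *Oas1a*, *Oas3*, *Oasl1*, *Zbp1* and *Ifi204*. Another 27 were called on day 7 alone, 15 on neither day, and 0 on day 1 alone. *Mx1* was the 1 gene called higher in each of the 3 comparisons. *Isg15*, *Ifi27l2a*, *Iigp1* and *Tgtp1* passed the FDR in no comparison. The comparisons with sham share the sham hearts, and both day 7 comparisons share the day 7 hearts. When each library of a comparison was left out in turn, the call was kept in every fit by 4 of the 6 genes on day 1, by 28 of 33 on day 7 against sham and by 10 of the 19 on day 7 against day 1. Of the genes that passed the FDR below the FC minimum, 8 of 15 on day 1, 2 of 9 on day 7 against sham and 2 of 14 on day 7 against day 1 missed the FDR in at least 1 of these fits. Leaving out sham heart 2 gave 12 genes called higher on day 1 and 36 on day 7. Leaving out day 1 heart 2 gave 4 on day 1. Leaving out day 7 heart 4 gave 28 on day 7 against sham and 11 on day 7 against day 1. The share of all genes called in these fits is not given, so these counts stand without a background. Without sham heart 2, the median log2 FC of the set against sham was 0.57 on day 1 and 1.43 on day 7. The medians of all genes tested were then -0.0015 and 0.03.

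**Figure D2:**
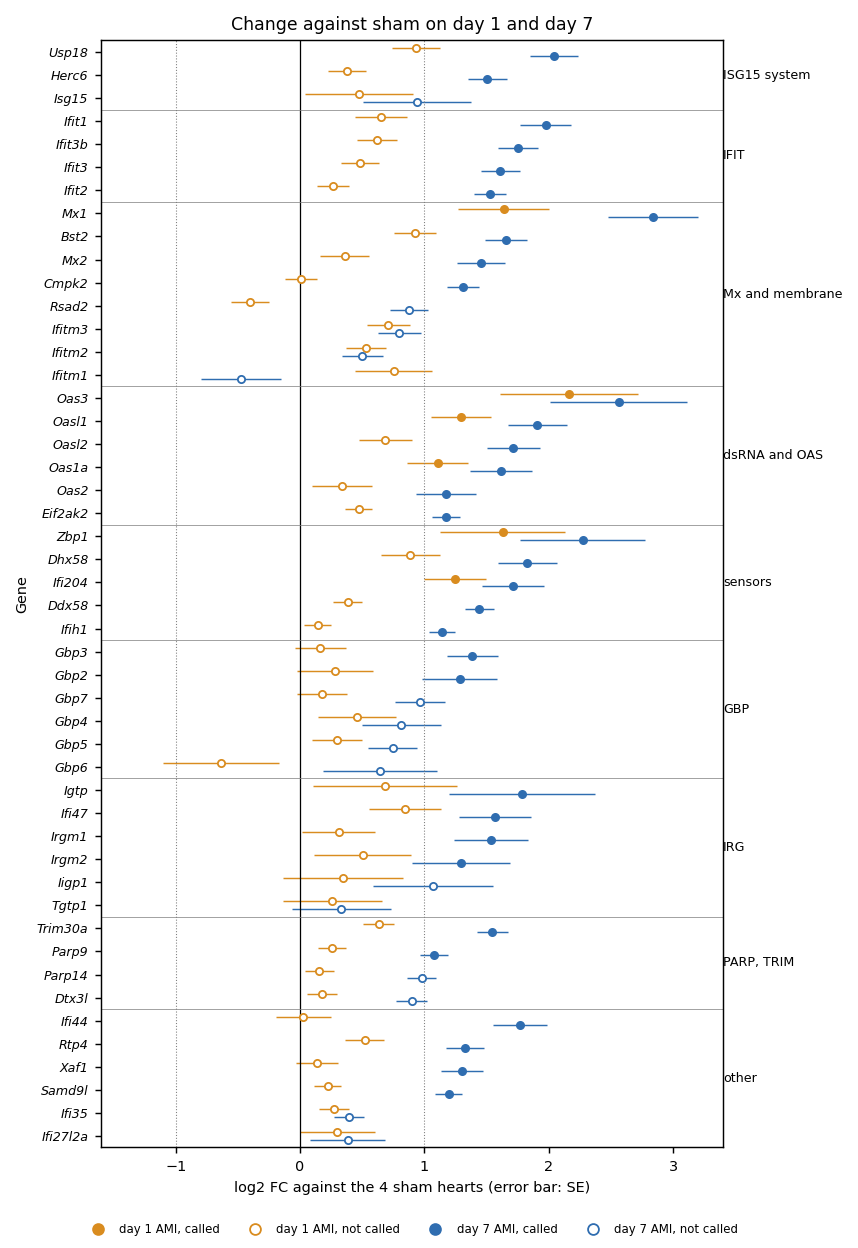
Log2 FC against sham (horizontal axis) of each of the 48 genes (vertical axis, grouped by role) on day 1 and day 7, with bars of ± 1 SE and filled points for genes called (FC of at least 2, FDR under 0.05). The 6 filled day 1 points and 33 filled day 7 points all lie to the right of 0.

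Markers of other cell types moved with these groups. All 8 leukocyte markers tested were called higher on both days, and their summed CPM was 78.6 to 138 in sham, 292 to 425 on day 1 and 298 to 488 on day 7, so that the ranges of both days overlapped. Macrophage markers were called higher for 4 of 9 on day 1 and 7 of 9 on day 7, with sums of 284 to 442, 549 to 783 and 815 to 1257 CPM, the day 7 hearts lying above all day 1 hearts. The T and NK cell markers were called higher for 3 of 7 and 7 of 7 tested, with sums of 2.14 to 2.56, 2.396 to 8.64 and 6.37 to 13.4 CPM. For plasmacytoid dendritic cells, known as strong makers of IFN-α, 0 of the 2 markers tested were called on either day, and the sum of all 5 was 1.48 to 1.98, 1.34 to 2.41 and 2.62 to 2.80 CPM, with *Siglech* at 1 to 14 counts in each library. Of the cells of the heart wall, 4 of 6 cardiomyocyte markers were called lower on day 7 against sham and 0 on day 1 (sums 59319 to 69861, 38049 to 48247 and 32352 to 37619.5 CPM). Fibroblast markers were called higher for 1 of 4 on day 1 and 2 of 4 on day 7 against sham and for 3 of 4 on day 7 against day 1 (sums 612 to 804, 654 to 853 and 2288 to 5821 CPM). Of 5 endothelial markers, 1 was called higher on day 7 than on day 1, where all 5 passed the FDR (sums 717 to 790.5, 563 to 611 and 947 to 1036 CPM). The part of these cells in the results was not tested. In whole-heart RNA, fewer cells of a type and less RNA per cell cannot be told apart.

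*Usp18* (chr6:121245906-121270917), whose protein strips the ubiquitin-like protein ISG15 from its targets and dampens signalling by IFNAR, rose on day 7. It stood at 2.66, 4.31, 2.76 and 4.69 CPM in the sham hearts, 7.34, 7.73, 7.30 and 5.30 on day 1 and 13.7, 15.2, 13.1 and 17.7 on day 7. All day 7 hearts lay above all day 1 hearts, and these above all sham hearts. On day 7 it was 4.12-fold higher (log2 FC 2.04 ± 0.19, FDR = 9.37e-07) against sham, and 2.16-fold (log2 FC 1.11 ± 0.18, FDR = 2.11e-04) against day 1, a call that ended narrowly without day 1 heart 4 (log2 FC 0.997). The day 1 difference passed the FDR below the FC minimum (log2 FC 0.93 ± 0.19, FDR = 0.00171), and was past it without sham heart 2 (1.03), sham heart 4 (1.08) or day 1 heart 4 (1.04). *Herc6*, the mouse ligase that attaches ISG15, also rose on day 7 (2.84-fold, log2 FC 1.51 ± 0.15, FDR = 1.81e-06), with an FDR of 0.0620 on day 1.

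*Isg15* itself (chr4:156199424-156200818) was not called in any comparison. It stood at 4.49, 16.6, 3.69 and 3.01 CPM in the sham hearts, 8.79, 12.9, 8.77 and 8.45 on day 1 and 19.2, 10.5, 8.96 and 15.1 on day 7. Sham heart 2 exceeded the other sham hearts 3.69-fold or more and lay above 3 of the 4 day 7 hearts. Against sham, the log2 FC was 0.47 ± 0.43 (FDR = 0.405) on day 1 and 0.94 ± 0.43 (FDR = 0.0758) on day 7. Without sham heart 2 both comparisons were past the thresholds, with a log2 FC of 1.39 (FDR = 0.00142) on day 1 and a log2 FC of 1.85 (FDR = 6.95e-05) on day 7. Day 7 against day 1 gave 0.47 (FDR = 0.383). That heart also had the highest sums of neutrophil markers (58.2 CPM against 2.77 to 31.7 in the other sham hearts) and of erythroid markers (4450.4 against 491 to 1178). Their part in its *Isg15* value was not tested.

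The interferon-induced proteins with tetratricopeptide repeats (IFITs), which bind foreign RNA that lacks the marks of host caps, rose together on day 7. All 4 rose on day 7 against both sham and day 1, 0 of 4 were called on day 1, and all 8 of these calls were kept whichever library was left out. *Ifit1* (chr19:34640871-34650009) stood at 9.18, 8.50, 5.63 and 5.88 CPM in the sham hearts, 13.2, 12.5, 10.7 and 9.49 on day 1 and 25.4, 29.7, 20.4 and 39.2 on day 7, with no overlap between any groups. It was 3.93-fold higher (log2 FC 1.97 ± 0.21, FDR = 2.38e-06) on day 7 against sham and 2.50-fold (log2 FC 1.32 ± 0.20, FDR = 1.12e-04) against day 1, and on day 1 it passed the FDR below the FC minimum (log2 FC 0.65 ± 0.21, FDR = 0.0215). *Ifit3* (chr19:34583531-34588731), the most abundant of the family per length at a mean of 23.8 TPM (the unit that also corrects for gene length) over 12 hearts, stood at 12.0, 16.3, 10.4 and 15.0 CPM in the sham hearts, 19.8, 20.7, 18.3 and 16.3 on day 1 and 42.4, 37.4, 33.6 and 51.1 on day 7. Sham heart 2 overlapped narrowly with day 1 heart 4, and the day 7 hearts stood clear of both groups. Its day 7 difference from sham was 3.05-fold (log2 FC 1.61 ± 0.15, FDR = 1.08e-06). *Ifit2* and *Ifit3b* were 2.88-fold and 3.37-fold higher on day 7 than in sham (FDR = 3.64e-07 and 7.55e-07). *Ifit3* and *Ifit3b* share 41.1% and 35.7% of their 75-base stretches with each other or another gene, so their separate values are less certain.

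*Mx1* (chr16:97447035-97462907), a dynamin-like GTPase that blocks influenza viruses in the nucleus and is known to be truncated and inactive in many laboratory strains, gave the highest FC of the 48 genes on day 7. It stood at 1.04, 1.52, 0.340 and 0.717 CPM in the sham hearts, 2.52, 3.25, 2.94 and 2.71 on day 1 and 8.20, 5.10, 3.69 and 9.25 on day 7. Each day 1 heart lay above each sham heart, and each day 7 heart above each day 1 heart, although all values were low, with 7 counts in sham heart 3. The FCs were 3.11-fold (log2 FC 1.64 ± 0.37, FDR = 0.00294) on day 1, 7.14-fold (log2 FC 2.84 ± 0.36, FDR = 1.34e-05) on day 7 and 2.29-fold (log2 FC 1.20 ± 0.31, FDR = 0.00641) on day 7 against day 1, and the last fell just under the minimum without day 7 heart 4 (log2 FC 0.99). Its cytoplasmic relative *Mx2*, which GENCODE M21 lists as a polymorphic pseudogene, rose on day 7 (2.75-fold, log2 FC 1.46 ± 0.19, FDR = 1.88e-05) and stood at 0.36 (FDR = 0.159) on day 1.

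*Rsad2* and *Cmpk2*, neighbouring genes on chromosome 12 that encode viperin, an enzyme that makes a chain-ending nucleotide, and a kinase that supplies its substrate, were not called higher on day 1. *Cmpk2* had a log2 FC of 0.01 (FDR = 0.976) on day 1 and rose on day 7 (2.48-fold, log2 FC 1.31 ± 0.13, FDR = 1.36e-06). *Rsad2* stood at 21.9, 27.7, 17.8 and 17.5 CPM in the sham hearts, 13.6, 19.4, 15.2 and 16.1 on day 1 and 37.8, 40.3, 32.8 and 45.5 on day 7, so that 3 of the 4 day 1 hearts lay under all sham hearts. Its day 1 log2 FC of -0.40 ± 0.15 passed the FDR by a narrow margin (0.0496) below the FC minimum, and was -0.13 (FDR = 0.551) with library sizes alone, -0.06 (FDR = 0.780) on the TPM scale and -0.24 (FDR = 0.175) without sham heart 2. On day 7 against day 1 it rose 2.43-fold (log2 FC 1.28 ± 0.15, FDR = 1.82e-05). Against sham on day 7 it passed the FDR below the FC minimum (log2 FC 0.88 ± 0.15, FDR = 1.93e-04), and was past that minimum without sham heart 2 (1.03).

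The membrane proteins that trap or block virus particles did not share one course. *Bst2* (tetherin) rose on day 7 (3.15-fold, log2 FC 1.65 ± 0.17, FDR = 1.79e-06) and passed the FDR below the FC minimum on day 1 (log2 FC 0.92 ± 0.17, FDR = 6.72e-04), where leaving out sham heart 2 gave 1.05. *Ifitm3* (chr7:141009586-141010770), which hinders fusion of viruses with endosomes and was the most abundant of the 48 genes per length at a mean of 408 TPM, stood at 85.1, 116, 66.4 and 60.8 CPM in the sham hearts, 129, 159, 131 and 117 on day 1 and 147, 147, 117 and 160.0 on day 7. Every AMI heart lay above every sham heart, and the days overlapped. Its log2 FCs were 0.71 ± 0.17 (FDR = 0.00507) on day 1, 0.80 ± 0.17 (FDR = 0.00117) on day 7 and 0.09 (FDR = 0.688) between the days, and leaving out sham heart 2 took the day 7 value past the minimum (1.01). *Ifitm2* had log2 FCs of 0.53 (FDR = 0.0184) on day 1 and 0.50 (FDR = 0.0165) on day 7, and -0.03 between the days, which is 0.10 with library sizes alone and 0.20 on the TPM scale.

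*Ifitm1* was the 1 gene of the 48 that fell from day 1 to day 7. It stood at 3.34, 6.08, 2.09 and 2.53 CPM in the sham hearts, 6.08, 8.65, 4.22 and 4.89 on day 1 and 2.22, 2.74, 1.96 and 3.27 on day 7. All day 7 hearts lay under all day 1 hearts, and sham hearts overlapped with both groups. The day 7 against day 1 log2 FC was -1.23 ± 0.31 (FDR = 0.00523), -0.99 without day 1 heart 2, and -0.91 (FDR = 0.0455) on the log2(TPM + 1) scale. Against sham it was not called on day 1 (log2 FC 0.75 ± 0.31, FDR = 0.0638), where leaving out sham heart 2 gave 1.17. Its day 7 value of -0.47 (FDR = 0.219) changed sign on the TPM scale (0.38, FDR = 0.332), so no direction against sham is given. Neutrophil markers followed the same order, with 3 of 6 tested called higher on day 1 against sham and 4 of 6 lower on day 7 than on day 1, and sums of 2.77 to 58.2 CPM in sham, 47.0 to 166 on day 1 and 8.15 to 39.0 on day 7. *Ly6g*, a defining neutrophil marker, had 0 to 8 counts in each library. The part of neutrophils in the *Ifitm1* values was not tested.

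**Figure D3:**
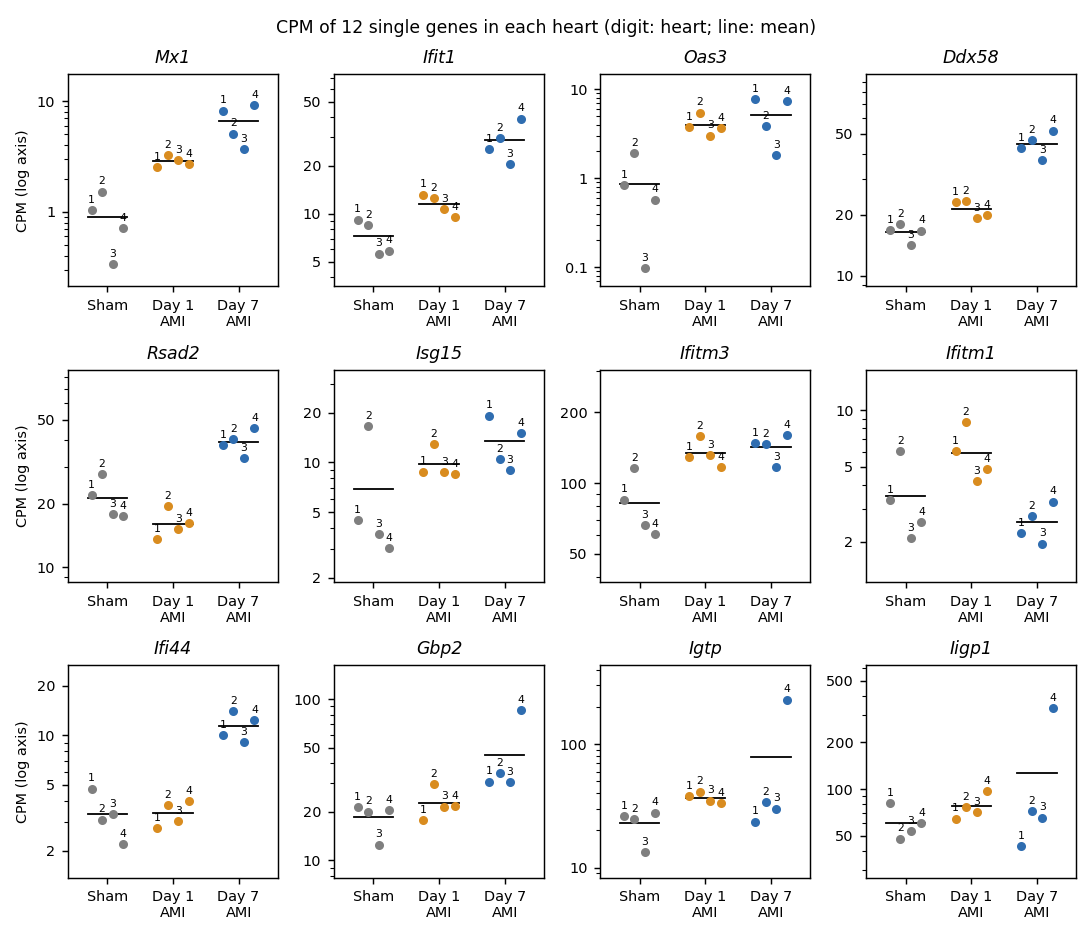
CPM of 12 of the genes in each heart (vertical axis, log scale) by group (horizontal axis), with each digit marking the heart of that number and the line the group mean. In the *Mx1*, *Ifit1* and *Ddx58* panels the day 7 hearts lie above all others, in the *Rsad2* and *Ifi44* panels day 1 does not lie above sham, and in the *Igtp* and *Iigp1* panels heart 4 alone lies far above the other day 7 hearts.

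The enzymes that respond to double-stranded RNA held 3 of the 6 day 1 calls, and all 6 genes of this group rose on day 7 against sham. The oligoadenylate synthetases (OAS) make short oligoadenylates that switch on RNase L. *Oas3* (chr5:120753098-120777661) stood at 0.835, 1.93, 0.0970 and 0.574 CPM in the sham hearts, 3.75, 5.46, 3.01 and 3.66 on day 1 and 7.83, 3.82, 1.81 and 7.38 on day 7. All day 1 hearts lay above all sham hearts, while 1 day 7 heart overlapped with sham and the day 7 hearts spread the most. The FCs were 4.49-fold (log2 FC 2.17 ± 0.56, FDR = 0.00667) on day 1 and 5.90-fold (log2 FC 2.56 ± 0.55, FDR = 0.00113) on day 7, where sham heart 3 held 2 counts, under the floor of 3, and 0.40 (FDR = 0.513) between the days. Without sham heart 2 the log2 FCs against sham were 2.99 (FDR = 0.00154) on day 1 and 3.38 (FDR = 2.64e-04) on day 7. *Oas1a* and *Oasl1*, an OAS relative without synthetase activity, were called on day 1 too (2.15-fold and 2.45-fold, FDR = 0.00292 and 8.07e-04), and the *Oas1a* call ended without sham heart 4 (log2 FC 0.94) or day 1 heart 2 (0.91). *Oas1a* shares 47.6% of its 75-base stretches with *Oas1g* or other genes.

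*Oasl2* was the most abundant gene of that family, with a mean of 23.6 TPM. It stood at 17.0, 19.5, 10.9 and 12.5 CPM in the sham hearts, 22.3, 33.1, 20.2 and 20.7 on day 1 and 43.7, 53.0, 37.2 and 63.0 on day 7, with no overlap between the groups. It rose on day 7 against sham (3.28-fold, log2 FC 1.71 ± 0.21, FDR = 1.10e-05), and its call against day 1 (log2 FC 1.03 ± 0.21, FDR = 0.00104) ended without any of day 1 heart 1 (0.99), day 1 heart 3 (0.95), day 1 heart 4 (0.96), day 7 heart 2 (0.99) or day 7 heart 4 (0.89). *Eif2ak2*, which encodes the RNA-activated kinase PKR that halts translation, rose on day 7 (2.25-fold, log2 FC 1.17 ± 0.11, FDR = 9.14e-07) and passed the FDR below the FC minimum on day 1 (log2 FC 0.47 ± 0.11, FDR = 0.00377). *Oas2* rose on day 7 (log2 FC 1.18 ± 0.24, FDR = 7.47e-04), a call just lost without day 7 heart 4 (0.99).

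All 5 nucleic acid sensors of the set rose on day 7 against sham. *Ddx58* (chr4:40203773-40239828) encodes RIG-I, which detects RNA with a free triphosphate end, and was the most abundant of them with a mean of 13.1 TPM. It stood at 16.7, 17.9, 14.2 and 16.7 CPM in the sham hearts, 22.98, 23.4, 19.3 and 19.9 on day 1 and 42.6, 46.7, 37.0 and 51.8 on day 7, each group clear of the others. The FC was 2.72-fold (log2 FC 1.44 ± 0.11, FDR = 2.21e-07) against sham and 2.08-fold (log2 FC 1.06 ± 0.11, FDR = 6.17e-06) against day 1, the latter just under the minimum without day 7 heart 4 (0.98). On day 1 it passed the FDR below the FC minimum (log2 FC 0.38 ± 0.11, FDR = 0.0152). Its relatives *Ifih1* (MDA5, a sensor of long double-stranded RNA) and *Dhx58* (LGP2, their regulator) were 2.21-fold and 3.55-fold higher than sham on day 7 (FDR = 7.73e-07 and 1.50e-05). *Ifih1* also rose from day 1 to day 7 at log2 FC 1.004, a call at the minimum itself that was lost in 4 of the 8 fits that left out a library (day 1 heart 1 or 4, day 7 heart 2 or 4, 0.91 to 0.98). *Dhx58* passed the FDR below the minimum on day 1 (log2 FC 0.89 ± 0.24, FDR = 0.00853), with 1.06 without sham heart 2 and 1.01 without day 1 heart 4, and against day 1 on day 7 (log2 FC 0.94 ± 0.22, FDR = 0.00316), with 1.10 without day 1 heart 2 and 1.09 without day 7 heart 3.

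*Zbp1* (chr2:173206612-173218923), a sensor of left-handed nucleic acids that can start necroptosis, and *Ifi204*, a cytosolic and nuclear DNA sensor, were the sensors called on day 1. *Zbp1* stood at 3.13, 3.57, 0.776 and 1.10 CPM in the sham hearts, 5.51, 9.94, 5.76 and 5.52 on day 1 and 8.69, 6.10, 5.28 and 21.7 on day 7. All AMI hearts lay above all sham hearts, and the top hearts were day 1 heart 2 and day 7 heart 4. It was 3.10-fold higher (log2 FC 1.63 ± 0.50, FDR = 0.0182) on day 1 and 4.83-fold (log2 FC 2.27 ± 0.50, FDR = 0.00133) on day 7. Without day 7 heart 4 the day 7 log2 FC was 1.63 (FDR = 0.00426) against sham, and day 7 against day 1 went from 0.64 (FDR = 0.259) to 0.003 (FDR = 0.996). The day 1 call ended without sham heart 3 (1.36, FDR = 0.0507), sham heart 4 (1.41, FDR = 0.0549) or day 1 heart 2 (1.37, FDR = 0.0591). It was kept without day 7 heart 4, which enters the spread shared by the 3 groups (log2 FC 1.63 ± 0.39, FDR = 0.0051). *Ifi204* was 2.37-fold higher (log2 FC 1.25 ± 0.25, FDR = 0.00141) on day 1 and 3.27-fold (log2 FC 1.71 ± 0.25, FDR = 4.54e-05) on day 7, and shares 13.2% of its stretches with *Ifi211* or other genes. Day 1 heart 2 also had the highest sums of neutrophil markers (166 CPM against 47.0 to 88.4 in the other day 1 hearts) and leukocyte markers (425 against 292 to 343), whose part in its *Zbp1* value was not tested.

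Of the 6 GBPs, large GTPases that coat and break open the vacuoles of intracellular microbes, 2 rose on day 7 against sham and 0 on day 1. *Gbp3* (chr3:142560026-142573209) stood at 15.3, 14.7, 11.6 and 13.3 CPM in the sham hearts, 10.8, 18.6, 14.9 and 17.0 on day 1 and 27.9, 34.2, 28.1 and 53.2 on day 7, the day 7 hearts clear of all others. It was 2.61-fold higher (log2 FC 1.39 ± 0.21, FDR = 5.34e-05) against sham and 2.33-fold (log2 FC 1.22 ± 0.20, FDR = 2.54e-04) against day 1, where leaving out day 7 heart 4 gave 0.97. *Gbp2* (chr3:142620602-142638008) stood at 21.4, 20.04, 12.5 and 20.5 CPM in the sham hearts, 17.7, 29.5, 21.5 and 21.8 on day 1 and 30.8, 34.7, 30.5 and 85.3 on day 7. Day 7 heart 4 lay 2.46-fold above the next day 7 heart. The FC against sham was 2.43-fold (log2 FC 1.28 ± 0.30, FDR = 0.00228), and without that heart it gave a log2 FC of 0.78 (FDR = 0.00276), so that this call rests on it. Against day 1 it reached log2 FC 0.999 (FDR = 0.0137), a hair under the minimum, and was past it without any of day 1 heart 2 and day 7 hearts 1, 2 and 3 (1.11 to 1.15), while without day 7 heart 4 it was 0.50 (FDR = 0.0427).

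*Gbp4*, *Gbp5* and *Gbp7* passed the FDR below the FC minimum on day 7 (log2 FC 0.81, 0.74 and 0.96), with *Gbp7* past the minimum without sham heart 1 (1.07), day 7 heart 1 (1.08) or day 7 heart 3 (1.03) and *Gbp4* without day 7 heart 1 (1.01). Without day 7 heart 4, *Gbp4* no longer passed the FDR, at a log2 FC of 0.35 (FDR = 0.220), while *Gbp5* had 0.49 (FDR = 0.0176) and *Gbp7* 0.75 (FDR = 0.00252). *Gbp6* stood at 41.3, 45.9, 14.6 and 13.7 CPM in the sham hearts, 15.5, 16.7, 21.8 and 20.5 on day 1 and 26.5, 26.3, 28.2 and 99.4 on day 7. Sham hearts 1 and 2 lay above all day 1 hearts and above 3 of the 4 day 7 hearts, and day 7 heart 4 above all. Against sham it gave 0.64 (FDR = 0.243), and -0.10 (FDR = 0.828) without day 7 heart 4. Against day 1 it was called (log2 FC 1.28 ± 0.46, FDR = 0.0351), a call lost without day 7 heart 4 (0.54, FDR = 0.236) or without any 1 of the 4 day 1 hearts, where the FDR was 0.0543 to 0.0831 at log2 FC 1.20 to 1.36. *Gbp6* shares 67.3% of its stretches with *Gm43302* or other genes.

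The IRGs, smaller GTPases of rodents that act on the same vacuoles, were where one heart weighed most. *Igtp* (chr11:58199556-58207591) stood at 26.0, 24.7, 13.3 and 27.9 CPM in the sham hearts, 37.7, 41.2, 34.9 and 33.4 on day 1 and 23.6, 34.0, 30.1 and 229 on day 7. Day 7 heart 4 was 6.74-fold above the next day 7 heart, and the other 3 day 7 hearts lay within the range of sham and day 1. Its day 7 FC against sham was 3.45-fold (log2 FC 1.79 ± 0.59, FDR = 0.0170), and without heart 4 it had a log2 FC of 0.35 (FDR = 0.163). On day 1 all its hearts lay above all sham hearts, at a log2 FC of 0.68 (FDR = 0.367). *Iigp1*, the most abundant IRG with a mean of 46.9 TPM, stood at 81.2, 47.97, 53.5 and 60.6 CPM in the sham hearts, 64.4, 76.8, 70.7 and 96.9 on day 1 and 43.0, 71.7, 65.4 and 330.3 on day 7, so that the other 3 day 7 hearts again overlapped with sham. It was not called on day 7 (log2 FC 1.07 ± 0.48, FDR = 0.0699), although it was past the thresholds without day 7 heart 1 (1.36), 2 (1.27) or 3 (1.29). Without heart 4 its log2 FC against sham was -0.018 (FDR = 0.948), and day 7 against day 1 went from 0.73 (FDR = 0.229) to -0.36 (FDR = 0.169). *Irgm2* was called on day 7 (log2 FC 1.30 ± 0.39, FDR = 0.0111), and had a log2 FC of 0.48 (FDR = 0.0197) without heart 4. The fit takes its spread from all 3 groups, so day 7 heart 4 also enters the day 1 tests. Without it the day 1 log2 FCs against sham were 0.68 for *Igtp* (FDR = 0.0114) and 0.50 for *Irgm2* (FDR = 0.0148, and 0.321 with it). *Iigp1*, *Irgm1* and *Tgtp1* still missed the FDR on day 1 (0.156, 0.145 and 0.548).

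*Irgm1* and *Ifi47* kept their day 7 calls against sham without heart 4. *Irgm1*, which guards host membranes and mitochondria from the other IRGs, stood at 23.6, 22.2, 15.5 and 25.4 CPM in the sham hearts, 22.8, 33.7, 26.4 and 24.5 on day 1 and 52.5, 44.9, 37.2 and 117 on day 7, with all day 7 hearts above the rest, and its FC was 2.90-fold (log2 FC 1.54 ± 0.30, FDR = 4.58e-04) against sham. Its call against day 1 (log2 FC 1.22 ± 0.29, FDR = 0.00333) was lost without heart 4 (0.74). *Ifi47* was 2.96-fold higher (log2 FC 1.57 ± 0.29, FDR = 3.28e-04) on day 7, and passed the FDR below the minimum on day 1 (log2 FC 0.84 ± 0.29, FDR = 0.0315, and 1.01 without sham heart 2). *Tgtp1* was not called (log2 FC 0.33, FDR = 0.493 on day 7), and 77.2% of its stretches are shared with *Tgtp2* or other genes. Day 7 against day 1, *Igtp* had 1.11 (FDR = 0.125) and *Irgm2* 0.79 (FDR = 0.108). Leaving out day 7 heart 1 took both past the thresholds (1.41 and 1.01), and leaving out heart 4 turned both below 0, to -0.33 (FDR = 0.206) and -0.03 (FDR = 0.908).

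Set against the median of the other 3 day 7 hearts, heart 4 was 3.30-fold higher at the median of the 6 IRGs and 2.17-fold at that of the 6 GBPs. The same ratio was 1.42 for the ISG15 group and 1.39 for the group of *Parp9*, *Parp14*, *Dtx3l* and *Trim30a*. It was 1.31 for the IFITs, 1.24 for the Mx and membrane group, 1.31 for the OAS group and 1.32 for the sensors. It was 1.23 for the 6 genes outside these groups, and 0.997 over all genes tested. All 6 IRGs and 3 of 6 GBPs (*Gbp2*, *Gbp4* and *Gbp6*) were at least 2-fold above the next heart there, and outside these families only *Zbp1* was (3.55-fold over the median of the others). *Ifng* had 0, 3, 2 and 15 counts in the day 7 hearts against 0 to 2 in each of the other 8 hearts.

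Heart 4 had the highest T and NK cell sum of the day 7 group (13.4 CPM against 6.37 to 9.30) and the highest neutrophil sum (39.0 against 8.15 to 12.9), while its leukocyte sum (488) was close to that of heart 1 (475) and its macrophage sum (1172) was under that of heart 1 (1257). The part of these cells in its GBP and IRG levels was not tested. Without heart 4, day 7 calls against sham numbered 2 of 3 in the ISG15 group, 4 of 4 IFITs, 4 of 8 in the Mx and membrane group, 5 of 6 in the OAS group, 5 of 5 sensors, 1 of 6 GBPs and 2 of 6 IRGs. The median log2 FC of the 48 genes was then 1.14 against sham and 0.65 against day 1, where all genes tested had 0.03 and 0.02.

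**Figure D4:**
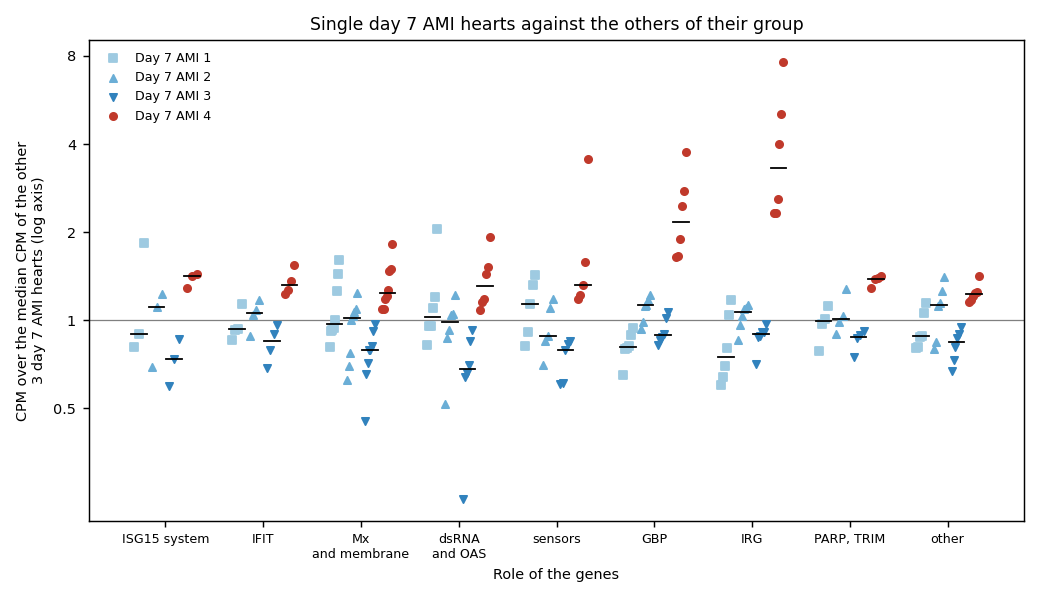
CPM of each of the 48 genes in each day 7 heart divided by the median of the other 3 day 7 hearts (vertical axis, log scale), by role (horizontal axis), with black bars for the median of each role. Heart 4 lies at a median of 3.30 for the IRGs and 2.17 for the GBPs, against 1.23 to 1.42 for the other roles.

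In the group of ADP-ribosyl transferases and ubiquitin ligases, 2 of 4 rose on day 7 against sham. *Trim30a* (chr7:104409025-104465193), a ligase that restrains NF-κB signalling, stood at 13.0, 13.4, 10.2 and 11.9 CPM in the sham hearts, 17.6, 21.3, 16.9 and 19.4 on day 1 and 31.4, 40.0, 30.0 and 40.3 on day 7, the groups lying apart in order of day. It was 2.92-fold higher (log2 FC 1.55 ± 0.13, FDR = 2.80e-07) on day 7, and on both day 1 against sham (log2 FC 0.63 ± 0.13, FDR = 0.00132) and day 7 against day 1 (log2 FC 0.91 ± 0.12, FDR = 4.34e-05) it passed the FDR below the FC minimum. *Parp9* (chr16:35938470-35972605), which works in a complex with the ligase DTX3L, stood at 17.7, 17.8, 17.7 and 18.7 CPM in the sham hearts, 22.6, 22.1, 22.0 and 19.1 on day 1 and 37.8, 33.9, 32.7 and 47.1 on day 7, the groups again lying apart in order of day. It was 2.11-fold higher (log2 FC 1.08 ± 0.11, FDR = 1.81e-06) on day 7, with 0.95 without heart 4. *Dtx3l*, which shares a promoter region with *Parp9* on the opposite strand and overlaps 9.40% of its exon bases, and *Parp14* were at 0.90 and 0.98 (FDR = 2.56e-05 and 6.69e-06), under the minimum, with *Parp14* past it without any of day 7 hearts 1, 2 and 3 (1.00 to 1.05).

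Among the remaining 6 genes, 4 rose on day 7 against sham and 0 on day 1. *Ifi44* (chr3:151730922-151749960), a GTPase-like protein of the antiviral response, stood at 4.75, 3.08, 3.35 and 2.20 CPM in the sham hearts, 2.75, 3.79, 3.01 and 3.97 on day 1 and 9.98, 14.0, 9.08 and 12.4 on day 7. Sham and day 1 hearts were intermixed, and all day 7 hearts lay above them. The log2 FC was 0.02 (FDR = 0.939) on day 1, and the rise of 3.35-fold (log2 FC 1.74 ± 0.21, FDR = 2.09e-05) from day 1 to day 7 was the largest of the 48. *Samd9l*, *Xaf1*, which promotes apoptosis, and *Rtp4*, a chaperone of receptors at the membrane, were 2.29-fold, 2.47-fold and 2.51-fold higher on day 7 than in sham (FDR = 7.79e-07, 1.37e-05 and 5.64e-06). *Samd9l* was also past the FC minimum against day 1 without day 1 heart 2 (1.02) or day 7 heart 3 (1.03). *Ifi27l2a* (chr12:103442167-103443680), a small protein of organelle membranes and the third most abundant of the 48 with 187 TPM, stood at 20.6, 42.0, 15.3 and 10.5 CPM in the sham hearts, 24.4, 33.9, 27.9 and 22.99 on day 1 and 31.3, 25.0, 27.3 and 32.04 on day 7. Sham heart 2 was above all other hearts, and no comparison passed (FDR = 0.447, 0.292 and 0.841). Without that heart it passed the FDR below the FC minimum on both days, with log2 FCs of 0.82 (FDR = 0.00466) and 0.90 (FDR = 0.00138) against sham. *Ifi35* had 0.39 (FDR = 0.0121) on day 7, and 16.8% of its exon bases lie opposite an antisense gene.

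Levels per length spread over a wide range. The mean TPM over 12 hearts ran from 1.12 for *Oas3* and 2.35 for *Mx1* to 408 for *Ifitm3*, followed from the top by *Ifitm2* (246), *Ifi27l2a* and *Bst2* (107). Of these 4 most abundant genes *Bst2* alone was called on day 7, where the 2 least abundant were called on both days. *Bst2* went from 40.7 ± 11.2 TPM (mean ± SD, n = 4) in sham to 95.3 ± 4.995 on day 1 and 186 ± 50.9 on day 7, and *Mx1* from 0.390 ± 0.231 to 1.67 ± 0.156 and 4.99 ± 1.73 TPM.

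The interferons themselves lay near the floor of detection. Of 21 ligand genes, 17 had 0 counts in every library, and all 21 together had 47 counts in the 12 libraries. A count of 0 in a library leaves room for up to 0.0895 to 0.156 CPM, which covers counting error only. *Ifnb1*, the first type I interferon made by many cells, had 2 counts in day 1 heart 2, 1 in day 7 heart 4 and 0 in the others. *Ifng* had 15 counts in day 7 heart 4 and at most 3 elsewhere. At this depth no difference in the ligands was testable, and 0 of the 21 passed the filter.

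Of the genes that carry the signal, 0 of 6 receptor genes were called in any comparison. With no FC minimum, 1 was higher and 2 were lower at an FDR below 0.05 on day 1 against sham, and 3 were higher and 2 lower on day 7 against sham. Their median log2 FC against sham was -0.07 on day 1 and 0.09 on day 7. *Ifnar1* had the highest log2 FC of the 6 on both days, with 0.43 (FDR = 8.49e-04) and 0.88 (FDR = 7.73e-07) against sham on day 1 and day 7. The lowest of the 6 were -0.60 on day 1 and -0.54 on day 7. Of 11 kinases and transcription factors, 2 rose on day 1 and 4 on day 7. *Irf5* and *Irf8*, factors of myeloid cells, were called on both days (log2 FC 1.75 and 1.15 on day 1, 1.74 and 1.70 on day 7), the day 1 call of *Irf8* ending without day 1 heart 2 (0.99). *Irf7*, the amplifier of type I interferon production, stood at 14.5, 23.7, 9.31 and 12.2 CPM in the sham hearts, 26.8, 32.1, 31.9 and 24.2 on day 1 and 58.4, 43.3, 41.3 and 72.8 on day 7, with no overlap between groups. It rose on day 7 (3.60-fold, log2 FC 1.85 ± 0.25, FDR = 2.05e-05) and on day 1 had 0.94 (FDR = 0.00735), with 1.26 without sham heart 2 and 1.01 without day 1 heart 4. *Stat2* rose on day 7 (log2 FC 1.21 ± 0.19, FDR = 8.89e-05), a call that ended without day 7 heart 4 (0.97), and *Irf9* had 0.82 (FDR = 3.46e-04).

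Of 10 genes of nucleic acid sensing upstream of interferon, 4 rose on day 1 and 5 on day 7. *Mb21d1*, which encodes cGAS, stood at 0.887, 1.27, 0.582 and 0.574 CPM in the sham hearts, 3.33, 2.86, 2.98 and 2.71 on day 1 and 4.22, 4.06, 3.28 and 5.34 on day 7. Every AMI heart lay above every sham heart, with FCs of 3.53-fold (log2 FC 1.82 ± 0.25, FDR = 1.09e-04) on day 1 and 5.03-fold (log2 FC 2.33 ± 0.25, FDR = 2.69e-06) on day 7. Its partner *Tmem173* (STING), the kinase gene *Ikbke* and the DNA receptor gene *Tlr9* rose on both days (log2 FC 1.09, 1.79 and 1.40 on day 1, 1.57, 2.12 and 2.54 on day 7), and *Tlr7* on day 7 (1.86). The day 1 call of *Tmem173* ended without sham heart 4 (0.97) or day 1 heart 2 (0.98), and *Tlr7* passed the minimum on day 1 without sham heart 1, sham heart 2 or day 1 heart 3 (1.03 to 1.09). Among 7 genes that restrain the pathway, *Ptpn6* and *Socs1* rose on both days (log2 FC 1.61 and 1.05 on day 1, 1.78 and 1.72 on day 7), and *Socs3* rose on day 1 (1.87) and fell by 1.58 on the log2 scale from day 1 to day 7. The day 1 call of *Socs1* was lost in 6 of the 8 fits that left out a library, those without sham heart 1, 3 or 4 or day 1 heart 1, 2 or 3 (FDR = 0.0518 to 0.139). *Socs3* had 0.28 (FDR = 0.618) on day 7 against sham, and 1.20 (FDR = 0.00648) without sham heart 2.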

How the data were processed

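RNA of 12 whole mouse hearts was sequenced. Per the labels and the study's methods, the authors sequenced both ends of each fragment (150 bases), used Cutadapt for trimming and mapped the reads to the mouse genome (mm10, Ensembl GRCm38) with STAR 2.4.0j and quantified expression with RSEM. They deposited raw gene counts and TPM for 53801 genes, and the counting program and its use of strand are not given in the sources used here.

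Counts as deposited were tested with edgeR 4.0.16 in R 4.3.3 (filterByExpr by group, TMM, quasi-likelihood fit of all 12 libraries in 3 groups with no covariate), with Benjamini-Hochberg FDRs over 15306 genes. SE is the log2 FC divided by the square root of F. A call needed an FC of at least 2 and an FDR under 0.05. Alternatives were DESeq2 1.42.0, other scalings, no filter, only the 2 groups compared, a replicate block, limma 3.58.1 on log2(TPM + 1) and log2(TPM + 0.1), no FC minimum and each library left out. On simulated counts with 4-fold changes edgeR recovered 200 of 200 changed genes, which does not test changes near the FC minimum. TPM, as deposited by the authors, served for levels per length.

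The members, role groups and lists were chosen with earlier results of these data known. A listed pathway gene is not reported here. Named in full were, in each role group, the gene with the largest log2 FC and the one with the highest TPM, with any called lower in AMI than in sham (0 were). *Ifitm1*, called lower on day 7 than on day 1, was chosen after its values were seen. *Rsad2*, *Gbp6* and *Irgm1* were also given heart by heart outside this rule, with their values known. Overlaps between genes came from GENCODE M21 and 75-base stretches of exon sequence. The paper calls the samples of a group biological replicates, while nothing in the labels beyond replicate numbers says that the 4 libraries are separate animals. The p-values set differences between groups against the spread between these samples. Over the 18 pairs of libraries within a group, chi-square divided by its degrees of freedom was never under 9.41, above sampling noise.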

Additional observations from a re-analysis of the deposited data

Results flagged for a closer look

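In groups of 4 hearts, 13 of 144 sets of values (48 genes in 3 groups) had 1 heart whose gap to the nearest other heart, as a share of the group's whole range, passed Dixon's 95% critical value for 4 samples. Chance flags about 1 in 20 such groups. Of the 13, 6 were the highest value of day 7 heart 4. The share flagged was 6.25% of the 48 genes and 6.15% of all genes in sham, 8.33% and 5.83% on day 1, and 12.5% and 6.00% on day 7, so that the sham share lay at the level of all genes.

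In day 7 heart 4 these were *Gbp6* (ratio 0.974, 99.4 CPM with the other day 7 hearts at or under 28.2), *Igtp* (0.949, 229 CPM against 34.0 or less), *Irgm2* (0.930, 182 CPM against 49.8 or less), *Gbp2* (0.923, 85.3 CPM against 34.7 or less), *Ifi47* (0.908, 22.1 CPM against 9.83 or less) and *Iigp1* (0.900, 330.3 CPM against 71.7 or less). In day 1 heart 2 they were *Zbp1* (0.943, 9.94 CPM against 5.76 or less), *Isg15* (0.923, 12.9 CPM against 8.79 or less) and *Oasl2* (0.834, 33.1 CPM against 22.3 or less).

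The sham group had *Isg15* high in heart 2 (0.891, 16.6 CPM against 4.49 or less), *Parp9* high in heart 4 (0.837, 18.7 CPM against 17.8 or less) and *Gbp2* low in heart 3 (0.844, 12.5 CPM with the other sham hearts at or above 20.04). On day 1, *Parp9* was low in heart 4 (0.832, 19.1 CPM with the others at or above 22.05).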

How the results depend on the processing

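Of 3021 values of the 48 genes in the 3 comparisons under the alternatives, 2815 kept their direction and side of the thresholds, 136 came past them, 43 fell short, and 27 changed sign. The 27 belong to 13 comparisons of single genes, and neither the reported value nor the one of changed sign passed the FDR in any of them. *Ifitm1* on day 7 against sham was 0.38 on log2(TPM + 1) and 0.43 on log2(TPM + 0.1), and *Ifitm2* on day 7 against day 1 was 0.10 with library sizes alone, 0.20 on log2(TPM + 1) and 0.20 on log2(TPM + 0.1). With 1 library left out, log2 FCs that changed sign ran on day 1 against sham from -0.13 to 0.24 for *Ifi44*, -0.0645 to 0.08004 for *Cmpk2* and -0.0756 to 0.48 for *Tgtp1*. They ran on day 7 against day 1 from -0.15 to 0.0757 for *Ifitm2*, -0.10 to 0.58 for *Gbp4*, -0.33 to 1.41 for *Igtp*, -0.0264 to 1.01 for *Irgm2*, -0.36 to 1.01 for *Iigp1* and -0.42 to 0.40 for *Tgtp1*. They ran on day 7 against sham from -0.10 to 0.96 for *Gbp6*, -0.0178 to 1.36 for *Iigp1* and -0.16 to 0.55 for *Tgtp1*. With day 7 heart 4 left out, *Gbp4*, *Gbp6*, *Igtp*, *Irgm2*, *Iigp1* and *Tgtp1* changed sign in a day 7 comparison. The count of genes higher on day 1 against sham was 6, and was 11 with library sizes alone, 15 on log2(TPM + 0.1), 20 with no FC minimum and 4 to 12 when 1 library was left out (12 without sham heart 2). Its count of genes lower was 0, and 1 with no FC minimum. Day 7 against sham gave 28 to 37 called higher when 1 library was left out. The share of all genes called is not given for the fits with 1 library left out, DESeq2, the replicate block or the TPM scales. Counts of called genes from those fits stand without a background. Day 7 against day 1 gave 32 higher with no FC minimum and 11 to 21 with 1 library left out, and the 1 gene lower became 0 on log2(TPM + 1), 0 on log2(TPM + 0.1) and 0 to 1 with 1 library left out. Medians moved with the scaling of all genes. The day 1 median log2 FC was 0.68 with library sizes alone, 0.72 on log2(TPM + 1) and 0.81 on log2(TPM + 0.1), and the day 7 median was 1.72, 1.62 and 1.78, while the median of all genes moved to 0.26, 0.27 and 0.32 on day 1 and to 0.43, 0.47 and 0.55 on day 7. Less that shift, the members stood at 0.42 to 0.48 on day 1 and 1.15 to 1.30 on day 7. With 1 library left out the medians were 0.33 to 0.57, 1.14 to 1.45 and 0.65 to 0.96. Library sizes alone also moved the split of all genes called higher and lower on day 1 from 1192 and 456 to 1764 and 217. Replicate numbers are shared by the groups, and no label ties them to a shared animal or batch. Over 12 pairs of same-numbered hearts the correlation of their deviations ran from -0.24 to 0.23, so they were not treated as paired. With the replicate block 6, 34 and 16 genes were called higher in the 3 comparisons. The block gained *Isg15* on day 7 against sham (1.19, FDR = 0.0223) and lost *Ifih1* (0.997) and *Gbp6* (FDR = 0.0806) on day 7 against day 1. DESeq2 gave 6, 32 and 16, with no FDR for *Igtp*. Depth limits the interferon ligands, which lie near the floor, and 4 hearts a group limit every call.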

Other observations

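Compared with the other day 7 hearts only, genes outside the 48 were also high in day 7 heart 4. Those named here were chosen after their values were seen. Of the 94 genes tested that were at least 2-fold above the next day 7 heart there, 10 belong to the 48 and 84 do not. Among the 84 were *Tap1*, the peptide transporter of antigen presentation (81.8 CPM against 35.0 or less in the other 3 hearts), *Psmb9*, an immunoproteasome subunit (30.7 against 12.9), *Nlrc5*, the transactivator of MHC class I genes (42.1 against 14.0), and *Cxcl9*, a chemokine known for its dependence on IFN-γ (33.9 against 10.7). *Gbp10* (13.7 against 1.55), *Tgtp2* (34.4 against 13.6) and the genes *BC023105* (41.6 against 1.70) and *Gm4841* (39.1 against 2.63) stood out too. The same heart was also high within its group for *Saa3* (31.3 against 2.55), *S100a8* (11.8 against 1.42), *C3* (491.6 against 243.2) and *H2-Aa* (203 against 97.2), genes of acute-phase, neutrophil, complement and MHC class II identity. The sum of the neutrophil markers, *S100a8* among them, was 39.0 CPM in this heart, 2.77 to 58.2 CPM in sham and 47.0 to 166 CPM on day 1.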
